A study of Mus musculus with 8 samples.

Results

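Collagen chains are the products of the genes named Col, a type number, the letter a and a chain number, and the array of this study held 82 probe sets for 42 of them, 42 of 18193 genes that have probe sets with a single symbol. For each gene, the probe set of highest mean over the 8 arrays was used, whatever its difference between groups. Of the 42 chains, 29 lay above the median signal of the array on at least 2 of the 8 arrays and were tested among 12420 genes, and 24 lay above it on every array. The other 13 chains, with log2 signals from 1.84 to 4.68, were not tested.

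Total RNA from mouse dorsal skin was hybridised to 8 Affymetrix arrays, 1 per sample. In 3 DNCB+HY209 samples, skin of Balb/c mice had received DNCB (dinitrochlorobenzene), a hapten that sensitizes skin on contact and is used to model atopic dermatitis, for 15 days and a PEG gel with 5% HY209, known to activate the bile acid receptor GPCR19, over the last 7 days. In 3 DNCB samples the same hapten was followed by vehicle, and 2 sham samples had neither agent by their titles and source names. The protocol fields of the sham samples nevertheless describe DNCB and vehicle like those of the other samples, a doubt that touches each comparison with sham. All mice were of 1 inbred strain, and neither their age nor whether the samples of a group came from separate animals is given in the labels, so the spread that p-values rest on is that between samples and may be technical.

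Collagens are proteins of the extracellular matrix in which chains wind into a long helix and assemble into class-specific structures. In skin, fibroblasts of the dermis make the fibrillar types I, III and V that give the tissue its tensile strength, type IV forms the sheet-like network of basement membranes under the epidermis and around vessels, and type VI forms beaded filaments near cells. Type VII anchors the epidermal basement membrane to the dermis, the transmembrane type XVII sits in the hemidesmosomes of basal keratinocytes, and the fibril-associated types XII and XIV bind to the surface of fibrils. After translation the chains are hydroxylated, chaperoned, trimmed of their propeptides and crosslinked by dedicated enzymes.

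Array quality and the signals of cell type markers differed between samples. Across probe sets, pairs of arrays of a group correlated with r between 0.965 and 0.987, and pairs of different groups with r between 0.920 and 0.987. The mean log2 signal of 7 bacterial spike-in probe sets was 9.87 to 10.89 on DNCB+HY209 arrays, 9.25 to 10.83 on DNCB arrays and 10.99 to 11.62 on sham arrays, so that both sham arrays lay above all others. Gapdh signal at the 3' end over that at the 5' end, a ratio that is larger in degraded RNA, was 2.31 to 3.24 in DNCB+HY209, 2.10 to 7.35 in DNCB with its highest value on array 3, and 2.81 to 4.46 in sham. The keratinocyte markers Krt5, Krt14 and Itgb4 averaged 10.60 to 11.84 log2 units over the arrays, and the mean of 5 tested hair follicle markers varied widely, from 6.04 on DNCB array 1 to 10.41 on sham array 1.

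DNCB and sham samples were compared to see which collagen chains differed between them. DNCB samples had received both hapten and vehicle, and whether sham samples received vehicle is not clear. The parts of hapten and vehicle therefore cannot be told apart. Of the 29 tested chains, 6 rose and 1 fell in DNCB samples relative to sham, and 22 did not pass the test (limma, Benjamini-Hochberg adjusted p under 0.05 over all 12420 genes). The chains that rose were the basement membrane chains Col4a1 and Col4a2, the fibrillar chain Col5a1, the beaded filament chain Col6a3, the fibril-associated chain Col12a1 and the transmembrane chain Col13a1, by 2.25-fold for Col13a1 and by 4.37-fold to 4.98-fold for Col4a1, Col4a2, Col5a1 and Col6a3. No fold is given for Col12a1, whose sham signals lay below the array median and whose probe sets differed in size. Sham signals of Col13a1 also lay below the array median, and other probe sets of Col4a1 and Col5a1 above the filter gave smaller differences. The folds of these chains are thus approximate. The chain that fell was Col4a5. Among all genes tested, 1.37% rose and 0.459% fell. The chains of types I and III, the main fibrillar collagens of the dermis, did not pass.

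The groups did not overlap for 14 chains that were higher in DNCB than in sham, against 23.3% of all genes, and for 2 that were lower, Col4a5 and Col9a3, against 11.2% of all genes. Of the 29 tested chains, 20 lay above 0 and 9 below, with a median log2 difference of 0.61, beside 0.15 over all genes tested. Over all 42 chains without the filter on low signal the median was 0.12, beside 0.019 over all 18193 genes without it. Because Col12a1 and Col13a1 passed that filter only through DNCB+HY209 and DNCB arrays, and Col4a5 through both sham arrays and 1 DNCB+HY209 array, counts over the tested chains are a description of them and not of all members.

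**Figure D1:**
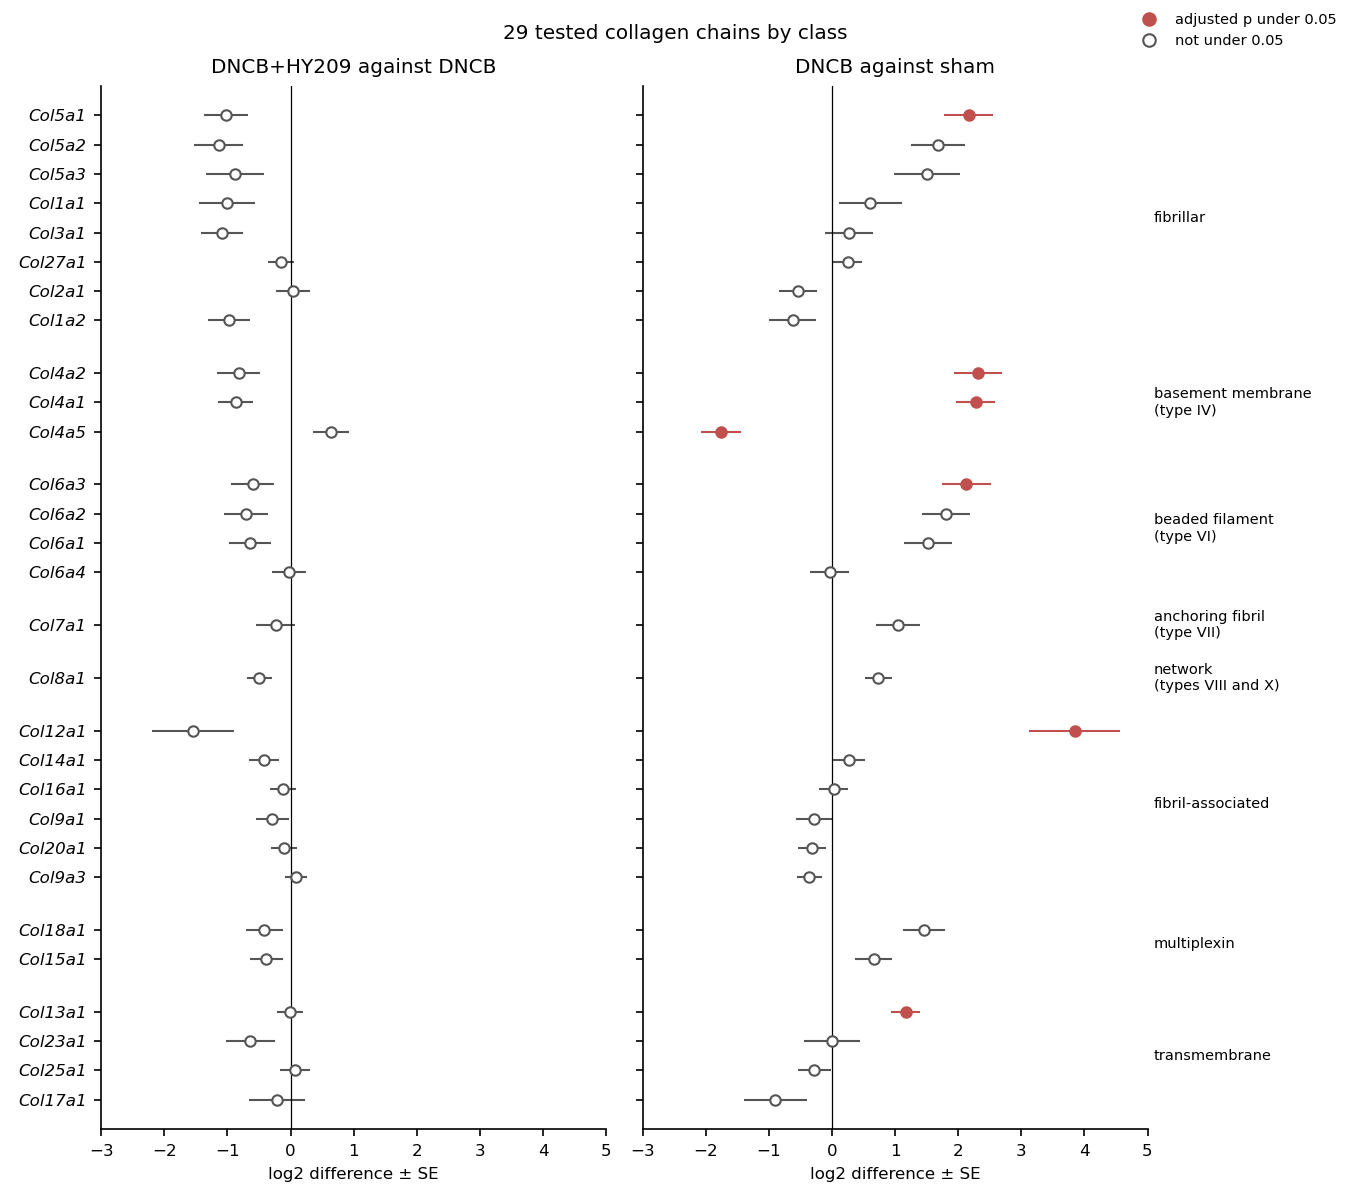
Log2 difference ± SE (x axis, log2 units) of each of the 29 tested chains, grouped by collagen class (y axis), for DNCB+HY209 against DNCB on the left and DNCB against sham on the right. Filled red points have an adjusted p under 0.05. The right panel has 7 of them, 6 above 0 and Col4a5 below 0, and the left panel has 0, with 25 of 29 points below 0.

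Type IV collagen held chains that changed in opposite directions. Of its 6 chains 3 were tested, of which 2 rose and 1 fell. Col4a1 and Col4a2 encode the chains that make up the network of nearly all basement membranes. They lie head to head on chromosome 8, where their annotated spans overlap by 85 bases. Because the 2 genes shared both their location and their change, their promoter windows are printed, together with those of Col5a1 and Col6a3, which also rose, and of Col1a2 and Col3a1, which did not pass. Each window runs from 250 bases before to 50 after a RefSeq start and is given 5' to 3' on the gene's own strand, on build GRCm38.p6. For Col4a1, Col5a1 and Col6a3 that start lies inside the annotated gene span and not at its edge. Col4a1 lies at chr8:11312777-11313076 on the minus strand, Col4a2 at chr8:11312555-11312854 on the plus strand, Col5a1 at chr2:27886175-27886474 on the plus strand, Col6a3 at chr1:90843922-90844221 on the minus strand, Col1a2 at chr6:4505368-4505667 on the plus strand and Col3a1 at chr1:45311288-45311587 on the plus strand. Capitals mark CCAAT and GGGCGG on either strand, read as ATTGG and CCGCCC on the other strand, and TATAAA in Col3a1. None of the marked motifs overlaps another, and the Col6a3 window holds no match to a motif searched.
Col4a1: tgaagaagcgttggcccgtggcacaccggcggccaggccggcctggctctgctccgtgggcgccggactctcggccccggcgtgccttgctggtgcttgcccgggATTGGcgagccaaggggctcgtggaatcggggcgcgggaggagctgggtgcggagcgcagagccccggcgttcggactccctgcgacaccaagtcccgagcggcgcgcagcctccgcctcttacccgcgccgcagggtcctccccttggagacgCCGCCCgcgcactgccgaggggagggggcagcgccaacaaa
Col4a2: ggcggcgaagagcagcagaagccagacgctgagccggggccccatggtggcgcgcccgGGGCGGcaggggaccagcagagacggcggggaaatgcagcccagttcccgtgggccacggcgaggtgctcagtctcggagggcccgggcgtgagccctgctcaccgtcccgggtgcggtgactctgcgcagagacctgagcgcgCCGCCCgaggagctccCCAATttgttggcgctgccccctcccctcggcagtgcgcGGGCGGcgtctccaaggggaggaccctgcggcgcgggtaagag
Col5a1: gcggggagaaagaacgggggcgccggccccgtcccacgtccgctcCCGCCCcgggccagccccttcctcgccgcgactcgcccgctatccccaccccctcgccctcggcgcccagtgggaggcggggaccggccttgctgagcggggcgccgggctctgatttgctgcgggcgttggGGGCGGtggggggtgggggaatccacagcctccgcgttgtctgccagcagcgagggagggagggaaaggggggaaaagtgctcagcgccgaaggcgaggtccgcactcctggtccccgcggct
Col6a3: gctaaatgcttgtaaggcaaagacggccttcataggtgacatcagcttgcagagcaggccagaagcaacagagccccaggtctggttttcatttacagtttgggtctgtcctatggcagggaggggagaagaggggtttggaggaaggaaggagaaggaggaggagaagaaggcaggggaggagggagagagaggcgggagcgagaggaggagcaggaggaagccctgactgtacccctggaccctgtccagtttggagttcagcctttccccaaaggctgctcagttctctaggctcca
Col1a2: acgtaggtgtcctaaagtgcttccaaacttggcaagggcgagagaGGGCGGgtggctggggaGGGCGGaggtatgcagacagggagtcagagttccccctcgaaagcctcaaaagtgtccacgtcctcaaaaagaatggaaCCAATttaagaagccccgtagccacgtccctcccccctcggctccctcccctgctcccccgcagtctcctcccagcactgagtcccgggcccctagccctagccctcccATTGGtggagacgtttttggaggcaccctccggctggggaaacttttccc
Col3a1: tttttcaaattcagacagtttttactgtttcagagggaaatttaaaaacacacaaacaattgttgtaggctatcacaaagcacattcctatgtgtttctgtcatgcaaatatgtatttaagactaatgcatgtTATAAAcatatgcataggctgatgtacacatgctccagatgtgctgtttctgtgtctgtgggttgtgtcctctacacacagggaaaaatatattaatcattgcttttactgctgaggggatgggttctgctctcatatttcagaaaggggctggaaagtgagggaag

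RefSeq windows were found for 33 of the 42 chains. The letters CCAAT occurred in 13 of the 33, beside 37.4% of all 32851 windows of this length, and GGGCGG in 21 of the 33, beside 35.7% of windows. Of the other motifs searched on both strands, TATAAA occurred in 5 of the 33 (13.6% of windows) and TGANTCA in 1 of the 33 (7.8% of windows). Of the 5 chains that rose and have a window, 2 held CCAAT, 3 GGGCGG and 1, Col13a1, TATAAA. The windows of Col4a1 and Col4a2 share 78 bases, counted from a Col4a1 start inside the span used for the overlap of the genes. The Col4a1 match to GGGCGG lies in these bases. It is the same site as a Col4a2 match, so the count for GGGCGG holds this site for both genes. In the Col4a2 window CCAAT lies -32 to -28 relative to the start, and in the Col4a1 window it lies -145 to -141 relative to the start on the opposite strand. In Col1a2 it lies -109 to -105 relative to the start, and again over bases 1 to 5 on the opposite strand. These matches describe the letters of the windows and do not show binding sites.

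Col4a1 had log2 signals of 8.02, 8.64 and 8.89 in DNCB+HY209, 9.60, 9.49 and 9.08 in DNCB, and 7.30 and 6.91 in sham. The 3 groups did not overlap, with DNCB highest and sham lowest. Col4a1 was higher in DNCB than in sham by 2.28 log2 units (SE 0.31, adjusted p = 0.0173), a 4.86-fold difference, and its other probe set above the filter differed by 1.59 in the same direction. Its partner Col4a2 had signals of 6.81, 7.29 and 7.69 in DNCB+HY209, 8.37, 8.52 and 7.37 in DNCB, and 5.82 and 5.72 in sham. Here too every DNCB array lay above both sham arrays, but DNCB array 3 fell inside the range of the DNCB+HY209 arrays. The difference between DNCB and sham was 2.32 (SE 0.38, adjusted p = 0.0274).

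Col4a5, on the X chromosome, encodes a chain that joins the product of Col4a6 in the basement membrane of the epidermis. Its signals were 3.68, 3.94 and 4.10 in DNCB+HY209, 3.04, 3.15 and 3.59 in DNCB, and 4.50 and 5.54 in sham. The order was the reverse of that of Col4a1, with sham highest and DNCB lowest and no overlap between the groups. Col4a5 fell by 1.76 log2 units in DNCB relative to sham (SE 0.32, adjusted p = 0.0361). All 3 DNCB signals lay below the array medians of 4.07 to 4.22, where log2 differences are approximate. Col4a3, Col4a4 and Col4a6 were not tested. Among these, Col4a4, named after its values were seen, had signals of 3.17 to 3.66 in DNCB+HY209, 3.12 to 3.66 in DNCB, and 4.10 and 4.57 in sham. For the others DNCB and sham overlapped. Col4a3 had 2.92 to 3.53 in DNCB and 3.49 and 3.70 in sham. Col4a6 had 2.92 to 3.51 in DNCB and 3.54 and 3.33 in sham.

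**Figure D2:**
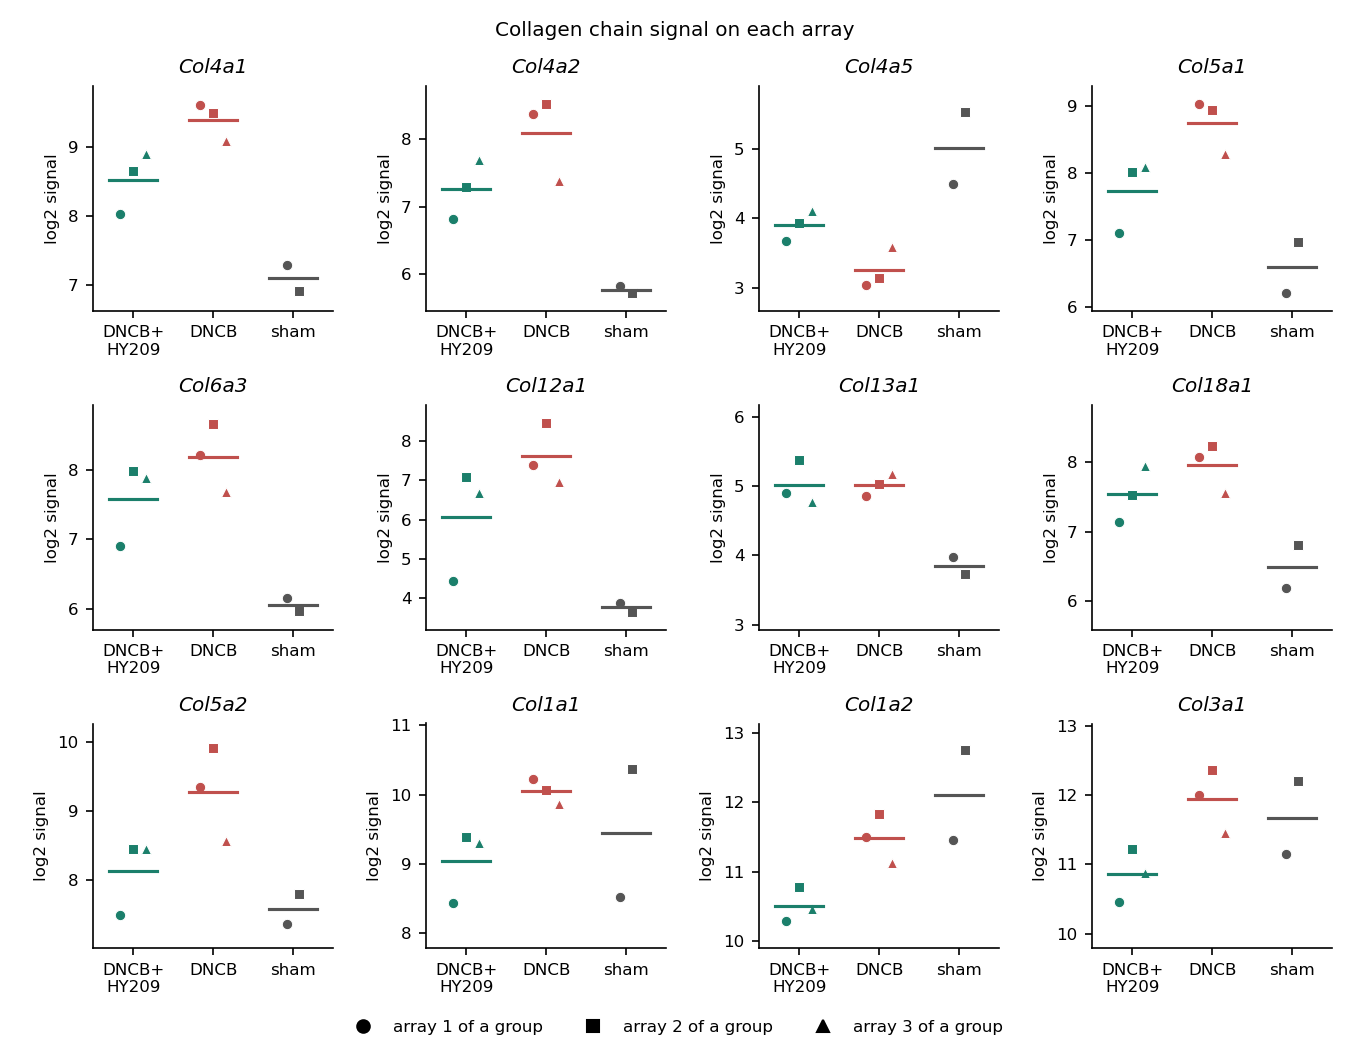
Log2 signal (y axis, as deposited; the axes do not start at 0) of 12 chains on each array, with DNCB+HY209, DNCB and sham from left to right; points are arrays, with their shape giving the array number, and lines are group means. Col4a1, Col4a2, Col5a1, Col6a3, Col12a1, Col13a1, Col18a1 and Col5a2 have every DNCB array above both sham arrays, Col4a5 has the opposite order, and for Col1a1, Col1a2 and Col3a1 the sham and DNCB arrays overlap.

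Among the fibrillar collagens, 8 of 11 chains were tested, of which 1 rose and 0 fell. Col5a1 encodes the main chain of type V collagen, which is built into type I fibrils and limits their diameter. It had log2 signals of 7.10, 8.02 and 8.09 in DNCB+HY209, 9.03, 8.93 and 8.29 in DNCB, and 6.20 and 6.97 in sham. The groups did not overlap, and DNCB exceeded sham by 2.17 (SE 0.39, adjusted p = 0.0361). The other 2 probe sets of Col5a1 above the filter gave 1.80 and 0.47, neither past the threshold when all probe sets were tested (adjusted p = 0.109 and 0.46). Col5a2, the second chain of type V, had 7.51, 8.45 and 8.45 in DNCB+HY209, 9.34, 9.91 and 8.57 in DNCB, and 7.38 and 7.81 in sham. Every DNCB array lay above both other groups, and the difference from sham was 1.68 (SE 0.43, adjusted p = 0.106), which did not pass.

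Types I and III make up the bulk of dermal fibrils. Col1a1 had log2 signals of 8.44, 9.39 and 9.31 in DNCB+HY209, 10.23, 10.06 and 9.86 in DNCB, and 8.52 and 10.37 in sham. Col1a2 had 10.28, 10.78 and 10.46 in DNCB+HY209, 11.50, 11.83 and 11.12 in DNCB, and 11.46 and 12.75 in sham. For both genes the sham arrays differed from each other by more than the DNCB arrays did, DNCB overlapped with sham, and all DNCB+HY209 arrays lay below all DNCB arrays. DNCB+HY209 overlapped with sham for Col1a1 and lay below it for Col1a2. Col3a1, the gene of type III collagen, which lies 24624 bases from Col5a2 on chromosome 1, had 10.46, 11.22 and 10.88 in DNCB+HY209, 12.00, 12.36 and 11.45 in DNCB, and 11.14 and 12.20 in sham, again with overlap between DNCB and sham. The differences between DNCB and sham were 0.61 for Col1a1 (SE 0.50, 95% interval -0.53 to 1.74), -0.62 for Col1a2 (SE 0.37, interval -1.46 to 0.22) and 0.27 for Col3a1 (SE 0.38, interval -0.59 to 1.12). None passed (adjusted p = 0.528, 0.405 and 0.713), and the intervals, not adjusted for the number of genes, leave room for changes of over 1 log2 unit. The 2 probe sets of Col1a1 above the filter went in opposite directions, at 0.61 and -0.13.

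The sham arrays were spread in opposite directions for different chains, so each chain was also set against Col1a2 on the same array, which brings in the spread of Col1a2 itself. This description was chosen after the values were seen and is given without a test, with the mean of the sham arrays set to 0 for each gene. Col3a1 relative to Col1a2 stood at 0.61, 0.87 and 0.85 log2 units in DNCB+HY209, 0.93, 0.97 and 0.77 in DNCB, and 0.11 and -0.11 in sham. Its sham arrays lay closer together than for Col3a1 itself, and the DNCB+HY209 and DNCB arrays overlapped. For Col5a1 the values were 2.33, 2.75 and 3.15 in DNCB+HY209, 3.05, 2.63 and 2.69 in DNCB, and 0.26 and -0.26 in sham. In Col4a1 they were 2.74, 2.85 and 3.43 in DNCB+HY209, 3.09, 2.66 and 2.96 in DNCB, and 0.84 and -0.84 in sham. The sham arrays of Col4a1 thus lay farther apart than before, as did those of Col4a2, Col5a2, Col6a3, Col12a1 and Col18a1, whereas those of Col5a1, Col6a1 and Col6a2 came closer. In each of the 8 chains plotted relative to Col1a2, all DNCB+HY209 and DNCB arrays lay above both sham arrays, so the difference between DNCB and sham was lower for Col1a2 than for any of them.

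**Figure D3:**
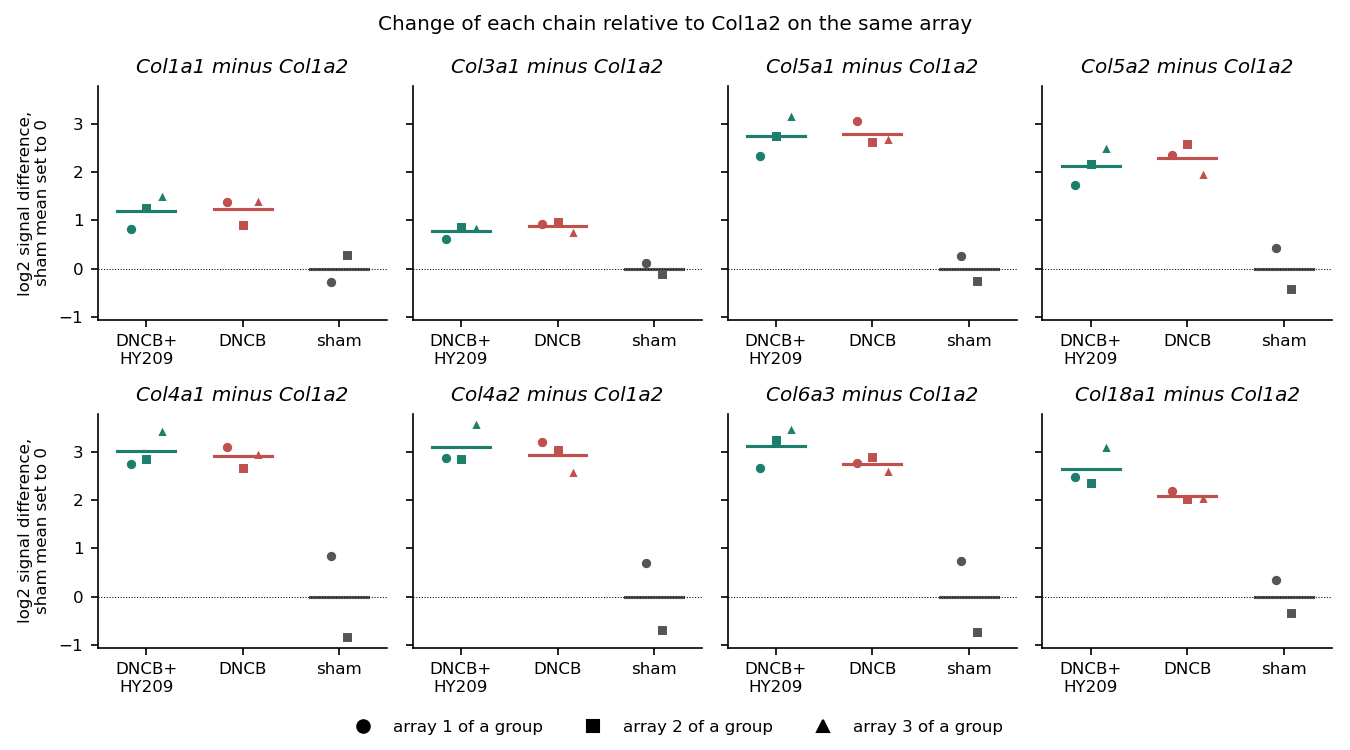
Log2 signal of 8 chains minus that of Col1a2 on the same array, with the sham mean of each chain set to 0 (y axis, log2 units), for DNCB+HY209, DNCB and sham from left to right; points are arrays and lines are group means. Every DNCB+HY209 and DNCB array lies above both sham arrays in all 8 panels, and DNCB+HY209 and DNCB arrays overlap in 7 of them, with Col18a1 the exception.

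Of the beaded filament collagen, type VI, 4 of 5 chains on the array were tested, and 1 rose. Col6a3, the long chain that joins those of Col6a1 and Col6a2, had log2 signals of 6.90, 7.98 and 7.88 in DNCB+HY209, 8.21, 8.67 and 7.68 in DNCB, and 6.15 and 5.97 in sham. Both treated groups lay above sham and overlapped each other. The difference between DNCB and sham was 2.13 (SE 0.39, adjusted p = 0.0365). Col6a2 had 8.01, 8.72 and 9.03 in DNCB+HY209, 9.57, 9.47 and 8.84 in DNCB, and 7.08 and 7.88 in sham. Col6a1, which lies 85161 bases from it on chromosome 10, had 7.71, 8.20 and 8.40 in DNCB+HY209, 9.07, 8.92 and 8.24 in DNCB, and 6.75 and 7.69 in sham. For both genes all DNCB arrays exceeded the sham arrays, by 1.81 on average for Col6a2 (adjusted p = 0.0557) and 1.52 for Col6a1 (adjusted p = 0.092), neither past the threshold. Col6a4 differed by -0.04.

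Col12a1 encodes the long fibril-associated type XII collagen. It had log2 signals of 4.44, 7.08 and 6.68 in DNCB+HY209, 7.39, 8.47 and 6.96 in DNCB, and 3.88 and 3.65 in sham. DNCB+HY209 array 1 stood apart from the other 2 arrays of its group, and both sham arrays lay below the array median. The difference between DNCB and sham was 3.84 (SE 0.72, adjusted p = 0.0394), with a 95% interval from 2.21 to 5.48, and its size rests on a sham signal too dim to be read exactly. A second Col12a1 probe set above the filter differed by 0.54, which did not pass when all probe sets were tested (adjusted p = 0.387), so the 2 probe sets differ widely in size. Col14a1, a second gene of this class, had 4.28, 4.52 and 4.11 in DNCB+HY209, 5.22, 4.55 and 4.43 in DNCB, and 4.33 and 4.60 in sham. These signals were near the array median except on DNCB array 1, where the median was 4.18. The difference of 0.27 did not pass (adjusted p = 0.597).

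**Figure D4:**
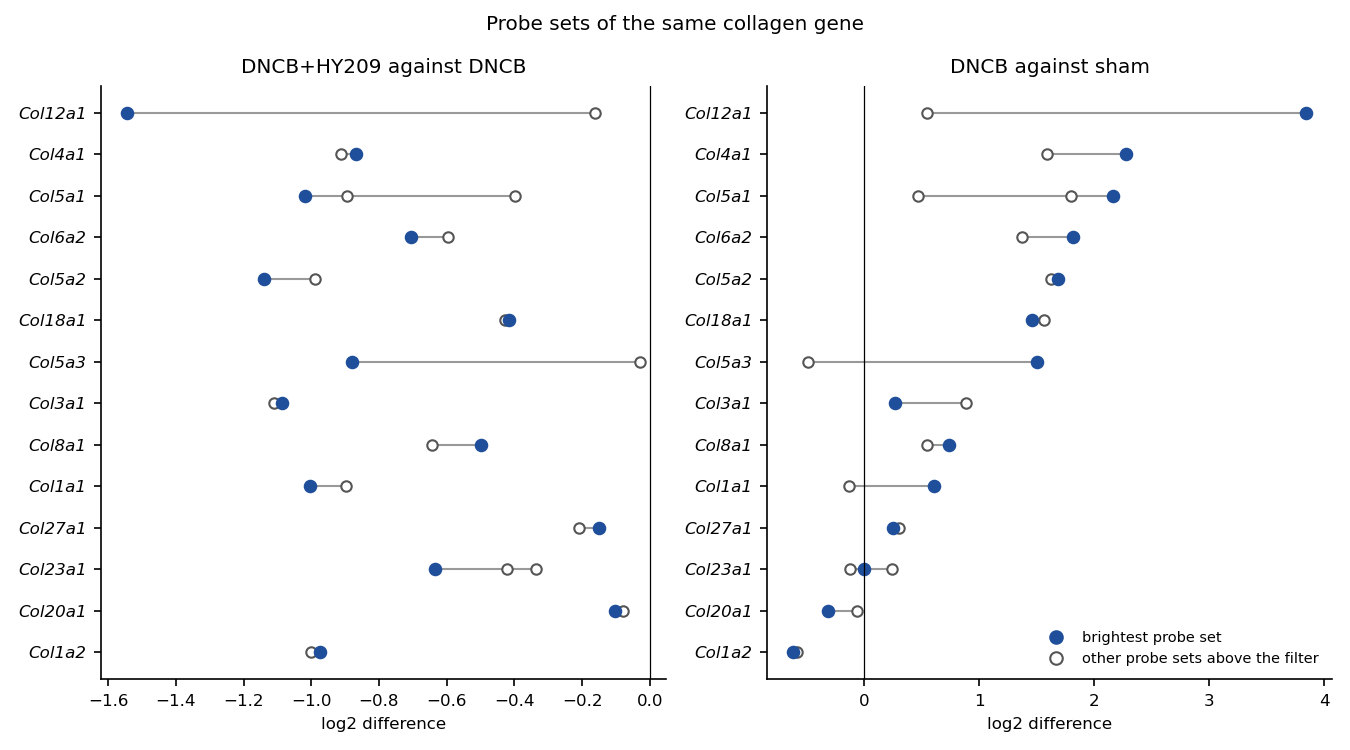
Log2 difference (x axis, log2 units) of each probe set above the filter for the 14 chains with more than 1 such probe set (y axis), for DNCB+HY209 against DNCB on the left and DNCB against sham on the right. Filled points are the brightest probe set of a gene and open points the others; the sign is shared in 14 of 14 chains on the left and in 11 of 14 on the right, where Col12a1 spans 0.54 to 3.84.

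Agreement between probe sets was counted over 14 chains with more than 1 probe set above the filter. All probe sets of a gene had the same sign in 11 of the 14 for DNCB against sham, the exceptions being Col1a1, Col23a1 and Col5a3. Probe sets of Col5a2 gave 1.62 and 1.68, those of Col18a1 1.46 and 1.56, and those of Col6a2 1.38 and 1.81. The sizes were thus close for these 3 genes and far apart for Col12a1, Col5a1 and Col5a3.

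Of the chains of the dermal-epidermal junction and the multiplexins, none passed with the brightest probe set of each gene. Col7a1, the anchoring fibril collagen, had log2 signals of 7.91, 8.45 and 8.39 in DNCB+HY209, 8.54, 8.22 and 8.69 in DNCB, and 6.89 and 7.98 in sham. Col17a1, the hemidesmosome collagen of basal keratinocytes, had 7.99, 9.44 and 9.37 in DNCB+HY209, 8.67, 9.62 and 9.15 in DNCB, and 9.56 and 10.53 in sham. All DNCB arrays exceeded sham for Col7a1, whereas DNCB and sham overlapped for Col17a1, and neither passed, with differences of 1.05 (adjusted p = 0.192) and -0.90 (adjusted p = 0.376). Col18a1 and Col15a1 are the multiplexins, basement membrane collagens that are rich around vessels, and the product of Col18a1 releases the fragment endostatin. Col18a1 had 7.14, 7.53 and 7.94 in DNCB+HY209, 8.07, 8.23 and 7.56 in DNCB, and 6.19 and 6.81 in sham. Every DNCB array lay above sham, and the difference of 1.46 (SE 0.33, adjusted p = 0.0684) did not pass. The other Col18a1 probe set above the filter differed by 1.56. It passed when all probe sets were tested (limma, adjusted p = 0.0382), and the brightest again did not (adjusted p = 0.0818). Col15a1 had 5.87, 6.07 and 6.21 in DNCB+HY209, 6.54, 6.55 and 6.22 in DNCB, and 6.25 and 5.29 in sham, with overlap and a difference of 0.67 (adjusted p = 0.297).

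Col13a1, which encodes a transmembrane collagen of cell adhesion sites, was the chain with the smallest change among those that rose. Its signals were 4.89, 5.38 and 4.77 in DNCB+HY209, 4.85, 5.02 and 5.17 in DNCB, and 3.97 and 3.72 in sham. The 2 DNCB-treated groups overlapped throughout and lay above sham, whose signals were below the array median. DNCB exceeded sham by 1.17 (SE 0.23, adjusted p = 0.0439). This difference did not pass when all probe sets were tested (limma, adjusted p = 0.0541). The 11 tested chains not described by array ran from -0.54 for Col2a1 to 1.51 for Col5a3 in this comparison, and 0 of them passed. Markers of cartilage, where Col2a1 and type IX collagen are abundant, passed the filter in 0 of 4 cases.

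Marker genes of several cell types differed between the same samples. Of 5 endothelial markers 3 rose in DNCB relative to sham (Cdh5 by 2.20, Emcn by 1.86 and Plvap by 1.83 log2 units), of 4 pericyte markers 2 (Rgs5 by 3.10 and Mcam by 1.70) and of 7 fibroblast markers 1 (Pdgfrb by 3.18, which pericytes also express). Among all genes tested, 1.37% rose. Other members of these marker lists had the opposite sign without passing. The pericyte marker Cspg4 was at -0.46, with every DNCB array below sham, and the fibroblast markers Dcn and Dpt were at -0.69 and -0.47, with overlap. The mean log2 signal of the endothelial markers was 5.41 to 5.97 in DNCB+HY209, 6.04 to 6.88 in DNCB, and 4.89 to 5.08 in sham. For the pericyte markers it was 6.75 to 7.19 in DNCB+HY209, 7.20 to 7.49 in DNCB, and 5.99 to 6.32 in sham. Neither list overlapped between any of the groups, the order that Col4a1 also showed. DNCB+HY209 and DNCB were separated narrowly, at 7.195 against 7.201 for the pericyte markers and 5.97 against 6.04 for the endothelial markers. Fibroblast markers averaged 6.75 to 7.06 in DNCB+HY209, 6.88 to 8.18 in DNCB, and 6.75 to 6.78 in sham. Of 5 macrophage markers 0 passed. For all 5, every DNCB array lay above both sham arrays, against 23.3% of all genes. Their median difference was 1.14, beside 0.15 over all genes tested. In DNCB+HY209 against DNCB all 5 were below 0, with a median of -0.58 beside 0.03 over all genes tested. Macrophage markers averaged 6.18 to 6.82 in DNCB+HY209, 6.36 to 7.40 in DNCB, and 5.79 to 6.16 in sham. The 2 adipocyte markers tested of 4 averaged 3.46 to 4.45 in DNCB+HY209, 3.38 to 5.44 in DNCB, and 5.86 to 6.94 in sham. The part of these cell types in the collagen differences was not tested, and in bulk skin fewer or more cells of a type cannot be told apart from less or more RNA per cell.

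**Figure D5:**
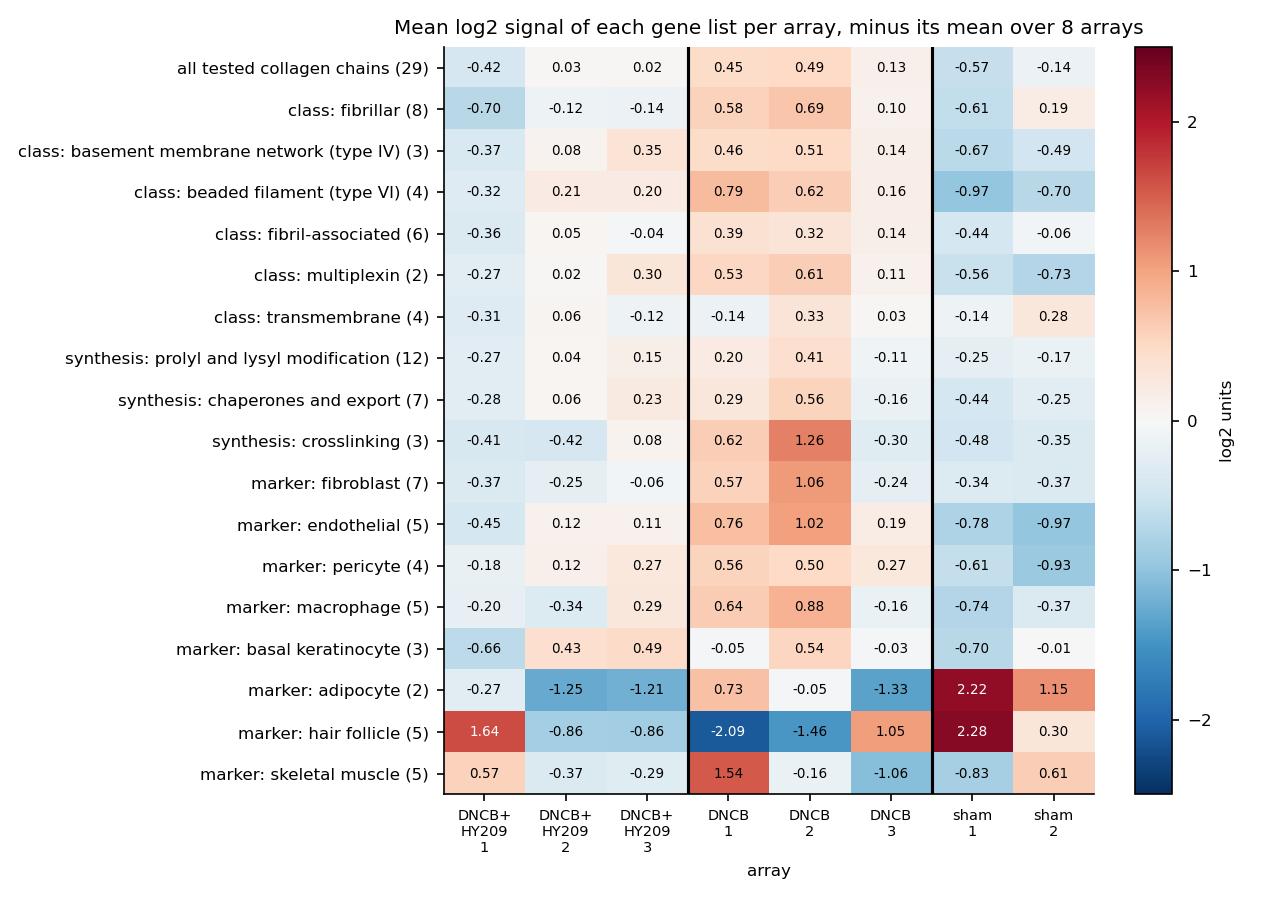
Mean log2 signal of each gene list (rows, with the number of tested genes in parentheses) on each array (columns, DNCB+HY209, DNCB and sham from left to right), minus the mean of the list over the 8 arrays; colour and printed value give the deviation in log2 units. The collagen mean is highest on DNCB array 2 at 0.49 and DNCB array 1 at 0.45 and lowest on sham array 1 at -0.57, and the hair follicle list varies most, from -2.09 to 2.28.

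The machinery that makes and crosslinks collagen, and collagen receptors, were described from a list of 46 genes, of which 30 were tested. In DNCB relative to sham 0 rose and 1 fell, beside 1.37% and 0.459% of all genes. Of the 30 genes, 24 lay above 0 and 6 below, and the median was 0.47 beside 0.15 over all genes tested. The gene that fell was Pcolce2, which encodes an enhancer of procollagen C-proteinase. It had log2 signals of 4.40, 4.15 and 4.41 in DNCB+HY209, 3.92, 4.07 and 4.06 in DNCB, and 5.09 and 6.29 in sham, with sham above both other groups, and its difference was -1.68 (SE 0.31, adjusted p = 0.0391). Next in size were the lysyl oxidases that crosslink collagen and elastin, Lox at 1.33 (adjusted p = 0.266) and Loxl1 at 1.18 (adjusted p = 0.292), which did not pass. Lox had 5.24, 5.32 and 5.71 in DNCB+HY209, 6.48, 7.74 and 5.46 in DNCB, and 5.22 and 5.23 in sham. DNCB array 3 thus fell inside the range of the DNCB+HY209 arrays, as it did for Col4a2.

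The calls for DNCB against sham depended on single arrays. When a DNCB+HY209 array was left out of the fit, the count of 7 chains became 9 for array 1, 1 for array 2 and 6 for array 3. Leaving out a DNCB array gave 0 for array 1, 0 for array 2 and 8 for array 3, and leaving out a sham array gave 1 for array 1 and 0 for array 2. The differences of the 7 chains kept their direction in each of these fits, from 2.09 to 2.47 for Col4a1 and from 3.41 to 4.17 for Col12a1. With the spike-in signal, which was higher on both sham arrays, as a covariate the count was 0, and Col4a1 stood at 1.93 (adjusted p = 0.0914). With the log2 difference of 3' and 5' Gapdh as a covariate it was 12.

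DNCB+HY209 and DNCB samples were compared for the effect of the HY209 gel on DNCB-treated skin. No chain passed the test in DNCB+HY209 relative to DNCB, and 0% of all 12420 genes did (limma, smallest adjusted p = 1). Of the 8 fibrillar chains tested, Col1a1, Col1a2, Col3a1, Col5a1 and Col5a2 had values near -1 log2 unit and Col5a3 was at -0.88, whereas Col27a1 was at -0.15 and Col2a1 at 0.04. Values of the basement membrane chains Col4a1 and Col4a2 were below 0 and that of Col4a5 above 0. At an unadjusted p under 0.05, 8 chains were lower and 1 was higher, beside 1.05% and 0.25% of all genes. Because the DNCB arrays enter this comparison and that of DNCB against sham, a chain that is high on them by chance is high against sham and low in DNCB+HY209 against DNCB, and the opposite signs of the 2 comparisons are no independent evidence.

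Of the 29 tested chains, 25 lay below 0 and 4 above, with a median of -0.43 beside 0.03 over all genes tested. Without the filter the median was -0.22 over all 42 chains, beside 0.006 over all 18193 genes. The groups did not overlap for 9 chains that were lower in DNCB+HY209 than in DNCB, against 2.17% of all genes, and for 1 that was higher, against 2.83%. The 9 comprised Col1a1, Col1a2, Col3a1, Col5a1, Col5a2, Col4a1, Col8a1, Col15a1 and Col23a1, and the chain that was higher was Col4a5. Of the 8 fibrillar chains tested, 5 were thus separated.

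For the type III gene Col3a1, whose arrays are given above, DNCB+HY209 averaged 10.85 ± 0.38 and DNCB 11.94 ± 0.46 log2 units (SD, n = 3 each). The difference was -1.08 (SE 0.34, 95% interval -1.85 to -0.32, adjusted p = 1). Col1a2 averaged 10.51 ± 0.25 in DNCB+HY209 and 11.48 ± 0.35 in DNCB, a difference of -0.97 (SE 0.33). Type I and III genes thus stood at similar distances, and Col1a1 differed by -1.005 (SE 0.45), Col5a1 by -1.02 (SE 0.35) and Col5a2 by -1.14 (SE 0.38). Col12a1 was at -1.54 (SE 0.65), where DNCB+HY209 array 1 decided much of it. Without that array the difference of Col12a1 was -0.73.

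The type IV chains differed by -0.87 for Col4a1 (SE 0.28), -0.82 for Col4a2 (SE 0.34) and 0.64 for Col4a5 (SE 0.28), all with adjusted p = 1. Type VI chains were at -0.60 for Col6a3, -0.71 for Col6a2 and -0.64 for Col6a1, and their groups overlapped. At the junction, Col7a1 was at -0.24 and Col17a1 at -0.21, with the DNCB+HY209 and DNCB arrays intermingled. Col18a1 was at -0.42, Col15a1 at -0.39, Col14a1 at -0.43 and Col13a1 at -0.00 (interval -0.47 to 0.46). All probe sets of a gene had the same sign in 14 of 14 chains with more than 1 of them.

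Array 1 of DNCB+HY209 was the lowest of its group in 18 of 29 chains, and DNCB array 3 the lowest of its group in 18 of 29. The hair follicle markers averaged 9.77 on DNCB+HY209 array 1, against 7.28 and 7.27 on the other 2 arrays of the group, and 9.19 on DNCB array 3, against 6.04 and 6.68 on the other DNCB arrays. In sham, array 1 was the lower in 21 of 29 chains, with hair follicle markers at 10.41 against 8.43 on array 2. The same arrays had the highest ratio of 3' to 5' Gapdh signal, at 3.24 on DNCB+HY209 array 1 against 2.62 and 2.31, at 7.35 on DNCB array 3 against 2.79 and 2.10, and at 4.46 on sham array 1 against 2.81. In each group the array most often lowest in collagen was thus the highest in both hair follicle markers and this ratio. Apart from the fits with the Gapdh difference as a covariate, the part of the follicle and of RNA quality in the collagen values was not tested. When each array was left out in turn, the median of the tested chains in DNCB+HY209 against DNCB ran from -0.61 to -0.36 and the count past the threshold was 0 each time.

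Of the 30 tested synthesis and receptor genes, 0 passed in DNCB+HY209 relative to DNCB, as for all genes. In this list 5 lay above 0 and 25 below, and the median was -0.30 beside 0.03 over all genes tested. The largest differences in size were those of Lox at -1.13 (SE 0.48), Pcolce, the enhancer of procollagen C-proteinase related to Pcolce2, at -1.04 (SE 0.43) and Loxl1 at -0.80 (SE 0.46), all with adjusted p = 1. Pcolce had 6.12, 6.31 and 6.98 in DNCB+HY209, 7.74, 8.17 and 6.62 in DNCB, and 6.95 and 7.91 in sham. As with Lox and Col4a2, DNCB array 3 fell inside the range of the DNCB+HY209 arrays.

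DNCB+HY209 samples were also set against sham. Of the 29 chains 0 passed in either direction, beside 0.403% of all genes, 0.266% higher and 0.137% lower. At an unadjusted p under 0.05, 10 chains were higher and 2 lower, beside 14.2% and 5.11% of all genes. The groups did not overlap for 10 chains that were higher in DNCB+HY209, against 29.1% of all genes, and for 5 that were lower, against 12.2%. The 10 comprised Col4a1, Col4a2, Col5a1, Col6a1, Col6a2, Col6a3, Col8a1, Col12a1, Col13a1 and Col18a1. The 5 comprised Col1a2, Col2a1, Col4a5, Col17a1 and Col23a1. Col8a1 was separated narrowly, with a lowest DNCB+HY209 signal of 4.60 against a highest sham signal of 4.59, and its other probe set differed by -0.10. Col2a1 was too, with a highest DNCB+HY209 signal of 4.666 against a lowest sham signal of 4.671. Probe sets of a gene shared a sign in 12 of 14 chains, the exceptions being Col5a3 and Col8a1. The median was 0.10 beside 0.20 over all genes tested. These values share the DNCB+HY209 arrays with those against DNCB, and the sham arrays with those of DNCB against sham.

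Col13a1 came closest to the threshold, at 1.17 (SE 0.23, adjusted p = 0.069), the same size as in DNCB against sham. Col4a1 was at 1.41 (SE 0.31, adjusted p = 0.0971), Col4a2 at 1.49, Col6a3 at 1.53 and Col12a1 at 2.30, and Col5a1 at 1.15. The type I and III chains had means below those of sham, at -1.60 for Col1a2 (SE 0.37, adjusted p = 0.113), -0.82 for Col3a1 and -0.40 for Col1a1. For Col3a1 and Col1a1 the DNCB+HY209 and sham arrays overlapped, and without sham array 2 the value of Col1a1 turned to 0.53. Col1a2 was below sham on each of the 3 DNCB+HY209 arrays, although the 2 sham arrays themselves differed by more than 1 log2 unit. Without DNCB+HY209 array 1, Col12a1, Col4a1 and Col6a3 passed, a count of 3. Among the synthesis and receptor genes 0 passed, and their median was 0.16 beside 0.20 over all genes tested. The largest differences in size were those of Pcolce2 at -1.37, the endoplasmic reticulum cation channel gene Tmem38b at 1.11 and Pcolce at -0.96.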

How the data were processed

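The authors deposited a table of 45101 probe sets whose values are log2 signals, a scale taken from the values themselves. Affymetrix Expression Console and MAS5 appear in the submitters' processing notes, without versions and without the way arrays were scaled to each other. The labels give a smaller array of the same generation. Detection calls were not used here, and precision is limited by the few arrays.

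Samples were grouped by titles and source names. Deposited values entered the tests unchanged, without a pseudocount. Probe sets with a single symbol in the platform annotation were kept if above the array median on at least 2 of 8 arrays, and the brightest represented its gene, which gave 12420 genes. Differences were tested with limma 3.58.1 in R 4.3.3 (lmFit and eBayes with intensity trend, all 8 arrays in 1 fit with 5 residual degrees of freedom, two-sided). P-values were adjusted by Benjamini-Hochberg over these genes, with a threshold of 0.05. SE is the moderated standard error, and intervals are unadjusted. The fit was tested on simulated data. Figures were drawn with Python 3.11.15 and matplotlib 3.10.9. Motifs were searched in RefSeq promoter windows of build GRCm38.p6. All 42 chains matched RefSeq by symbol and Entrez identifier.

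Chains past the threshold in any comparison and a fixed set of 16 are given by array. Among synthesis and receptor genes, those past the threshold and the 3 largest differences per comparison are named. The members, the lists and the tests were chosen with earlier results of these data known. Alternatives were quantile normalization, centring on the array median, no filter, a stricter filter, the mean of the probe sets of a gene, all probe sets, no trend, robust variance, array weights, a fit of the groups compared alone, the replicate number as a block, 2 quality covariates and each array left out.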

Additional observations from a re-analysis of the deposited data

How the results depend on the processing

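The count of chains past the threshold in DNCB against sham was 7. It stayed at 7 with quantile normalization, median centring, no filter, all probe sets and robust variance. The chains could differ at the same count. With all probe sets Col18a1 passed (limma, adjusted p = 0.0382) and Col13a1 did not (adjusted p = 0.0541). The count was 6 with the stricter filter, the mean of probe sets and no trend, and 5 with array weights and with the groups compared alone. The count was 0 with the replicate block, 0 with the spike-in covariate and 12 with the Gapdh covariate, and 0 to 9 with each array left out; the cause was not tested. All-gene counts moved likewise, to 35, 16 and 452 from 227. Correlations of deviations from group means were -0.60 to 0.28 for arrays of the same replicate number and -0.66 to 0.61 for arrays of different numbers. Because deviations within groups of 2 or 3 arrays are bound to each other, these correlations cannot decide whether samples were paired. The collagen median of 0.61 was 0.12 with no filter, which adds 13 dim chains, and 0.21 to 0.70 with each array left out. Quantile normalization moved the median of all genes from 0.15 to -0.0017 and that of the chains to 0.46, with 18 above 0 and 11 below. With no filter the median of all genes was 0.019 for DNCB against sham. It was 0.006 for DNCB+HY209 against DNCB and 0.026 for DNCB+HY209 against sham. For DNCB+HY209 against DNCB the count was 0 under every alternative, and the median ran from -0.61 to -0.36 with each array left out. For DNCB+HY209 against sham it was 7 with array weights and 0 to 3 with each array left out, and the median of 0.10 was -0.02 with the spike-in covariate and -0.03 with no filter.

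Signs turned for values past no threshold. Col3a1 in DNCB against sham was -0.044 with the spike-in covariate. In DNCB+HY209 against DNCB, Col13a1 was 0.0125 with median centring, 0.32 with array weights and 0.0505 with the Gapdh covariate, and Col17a1 was 0.39 with array weights. In DNCB+HY209 against sham, Col14a1 was 0.0247 with array weights, and Col15a1 was -0.0268 and Col5a2 -0.12 with the spike-in covariate. With each array left out, Col1a1 ran from -0.32 to 1.53, Col3a1 from -0.26 to 0.79 and Col1a2 from -1.26 to 0.0215 in DNCB against sham, Col13a1 from -0.19 to 0.12 and Col17a1 from -0.47 to 0.26 in DNCB+HY209 against DNCB, and Col15a1 from -0.20 to 0.76 and Col1a1 from -1.32 to 0.53 in DNCB+HY209 against sham. Where 1 sham array remained, it was assumed to vary like the other groups. Signals near the array median limit the differences of Col4a5, Col12a1, Col13a1 and Col14a1.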
